A study of Mus musculus with 8 samples.

Results

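The 10 genes described here are 8 PARP genes whose proteins are classed as mono-ADP-ribosyltransferases (Parp6, Parp8, Parp9, Parp10, Parp11, Parp12, Parp14 and Parp16), the PARP-like gene Zc3hav1, and Dtx3l, whose protein is the partner of PARP9. They were taken by symbol from the 41388 genes counted in brown adipose tissue. All 10 were found in each of the 8 tables and all 10 passed the filter on low counts. PARP enzymes split NAD+ and attach its ADP-ribose part to a protein or nucleic acid. PARP1, PARP2 and the tankyrases build chains of ADP-ribose, whereas most of the enzymes described here attach a single unit that macrodomain proteins can read or remove. Many genes of the mono-ADP-ribosylating group are known to respond to interferon, and several of the proteins act in antiviral defence.

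Total RNA of brown fat, the tissue that burns fuel to make heat, was sequenced after removal of ribosomal RNA. The 4 ANKO mice combined a Cre transgene driven by the adiponectin promoter with floxed Nampt, and the 4 WT mice were labelled flox/flox and wild type. All 8 mice were C57BL/6J, lived at room temperature and ate regular chow, and their age is not given in the sources used here. Nampt makes the NAD+ precursor nicotinamide mononucleotide from nicotinamide, so the comparison asks how transcript levels differ when adipocytes cannot use this route to the substrate of PARP enzymes. The adiponectin promoter is active in adipocytes of all fat depots, and other cells of the tissue keep an intact Nampt gene. Nampt itself was read at 484, 484, 571 and 495 counts per 1000000 counts (CPM, with library sizes scaled by edgeR's TMM factors) in WT1 to WT4, and at 67.4, 69.5, 77.6 and 74.6 CPM in ANKO1 to ANKO4. Every ANKO library lay below every WT library, 7.04-fold on average (-2.81 ± 0.12 as log2 fold change with its standard error, edgeR adjusted p = 1.51e-07).

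Library totals ran from 21771276 to 49697156 counts in WT and from 5738067 to 26426476 in ANKO, and a level of 3 counts was 0.0626 CPM in the deepest library and 0.527 CPM in the shallowest, before scaling. The lowest count of any of the 10 genes was 56, for Parp16 in ANKO4. Of 16705 genes tested, 5111 were higher in ANKO (30.6%) and 4615 lower (27.6%) at an edgeR adjusted p under 0.05, which is the meaning of "called" below. Every ANKO library lay above every WT library in 28.7% of the genes tested and below in 26.4%. With total counts in place of TMM factors the median of all genes shifted by 0.18 on the log2 scale and the split became 5897 higher and 2940 lower; with upper-quartile factors it was 5522 and 3825. With these shares of genes called, a call alone says little about any group of genes. Brown adipocyte markers summed to 16773 to 26328 CPM in WT and 5315 to 9692 CPM in ANKO and were read in every library. Markers of macrophages (162 to 210 against 1340 to 1839 CPM), of fibroblasts (864 to 1257 against 3968 to 7535 CPM) and of skeletal muscle (30.0 to 2590 against 9759 to 14111 CPM) were all more abundant in ANKO. These are bulk samples, in which fewer cells of a type and less RNA per cell cannot be told apart.

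Transcripts of 8 of the 10 genes were higher in ANKO, Parp6 was lower, and Parp16 was not called. The 8 that rose were also those in which every ANKO library exceeded every WT library, against the 30.6% called higher and 28.7% not overlapping upwards among all genes. The same 8 genes were called higher and Parp6 lower under each of the other 3 scalings tried. Fold differences ran from 4.53-fold for Parp8 down to 1.58-fold for Parp10. The median log2 fold change of the 10 genes was 0.99, beside -0.01 over all genes tested. The summed level of the 10 genes was 429, 363, 321 and 316 CPM in WT1 to WT4 and 716, 724, 674 and 738 CPM in ANKO1 to ANKO4.

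**Figure D1:**
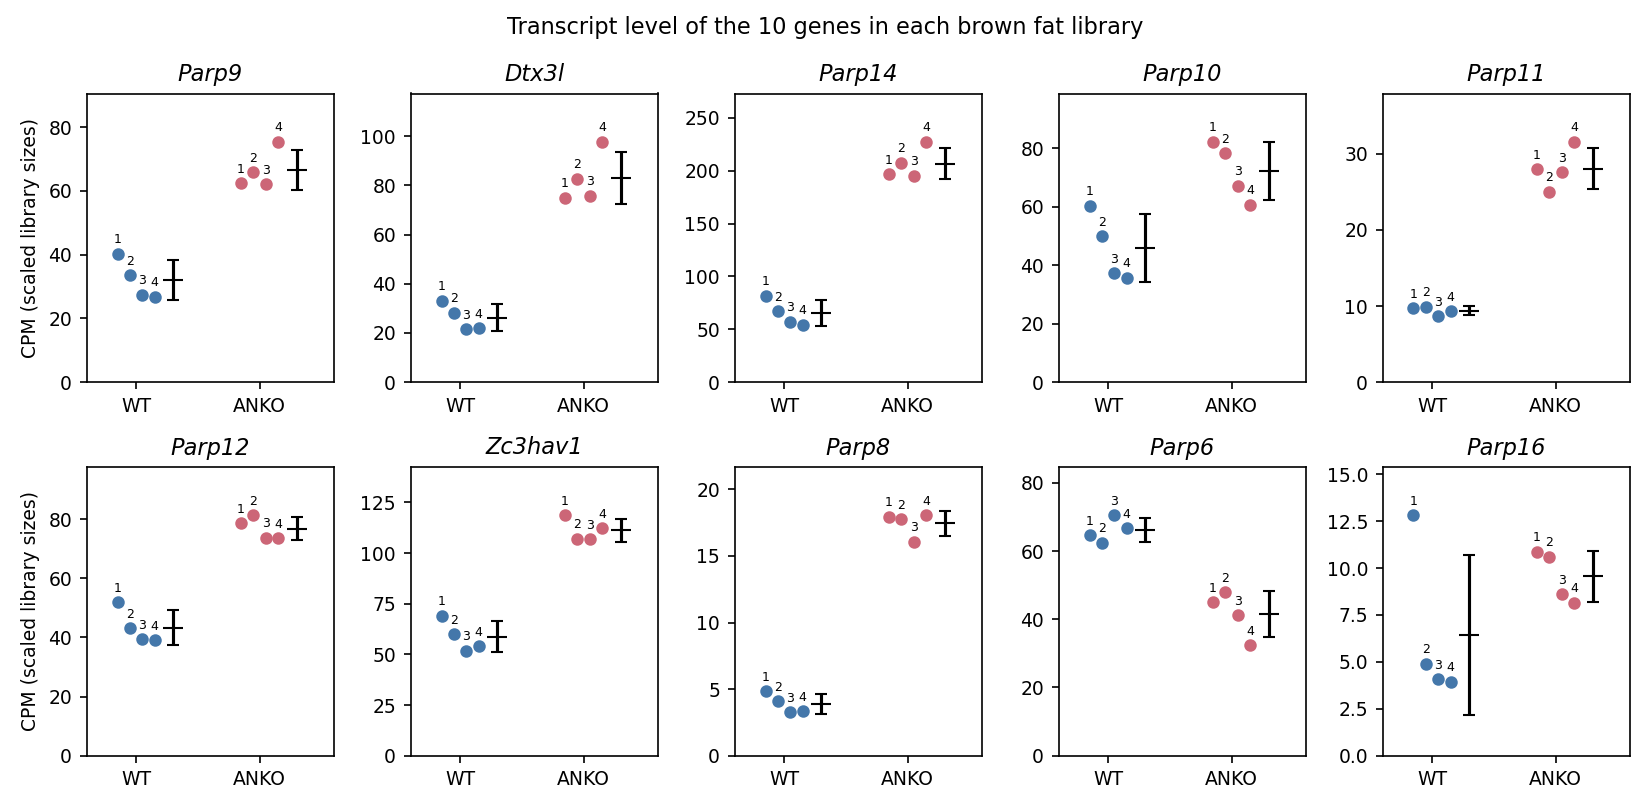
Transcript level of each of the 10 genes in every library, in CPM with scaled library sizes (vertical axes start at 0 and differ between panels). Points are mice, numbered by library, and the bar beside each group is the mean with its SD (n = 4). Only in Parp6 do all ANKO points lie below all WT points, and in Parp16 the WT1 point at 12.8 CPM lies above every ANKO point.

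The increases of Parp14 and Dtx3l, exceeded among the 10 genes only by that of Parp8, came from a stretch of chromosome 16 that also holds Parp9. Parp14 (ENSMUSG00000034422, chr16:35832874-35871544, minus strand, GRCm38) encodes a large enzyme with macrodomains that reads as well as writes ADP-ribose and takes part in STAT6 signalling. It was read at 81.8, 67.3, 57.2 and 54.5 CPM in WT1 to WT4 and at 197, 207, 195 and 228 CPM in ANKO1 to ANKO4. The lowest ANKO library was 2.39 times the highest WT library (log2 fold change 1.67, standard error 0.14, 3.17-fold, adjusted p = 5.67e-06).

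Dtx3l (ENSMUSG00000049502, chr16:35926511-35939151, minus strand) encodes an E3 ubiquitin ligase that forms a heterodimer with PARP9. Its levels were 33.2, 28.2, 21.5 and 22.0 in WT and 74.9, 82.7, 75.8 and 97.8 CPM in ANKO. No library of one genotype reached the other (log2 fold change 1.66, standard error 0.15, 3.16-fold, adjusted p = 1.33e-05). ANKO4 was the highest library and WT3 the lowest.

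Parp9 (ENSMUSG00000022906, chr16:35938470-35972605, plus strand) has little transferase activity without DTX3L, and the pair has been described to ADP-ribosylate ubiquitin. It was read at 40.2, 33.6, 27.4 and 26.9 in WT and at 62.4, 65.9, 62.1 and 75.5 CPM in ANKO. The groups did not overlap, and the difference was smaller than that of its partner (log2 fold change 1.05, standard error 0.14, 2.08-fold, adjusted p = 0.000125).

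Parp9 and Dtx3l lie head to head on opposite strands. Their spans overlap by 682 bases and their annotated exons share 458 bases, so that reads of this stretch cannot be told apart unless strand was used in counting, which is not given in the sources used here. No protein-coding gene lies in the 55.0 kb between Parp14 and Dtx3l. The balance between the 3 genes was compared inside each library as a ratio of counts per kb of exon, which does not depend on library scaling. Parp9 to Dtx3l was 1.43, 1.40, 1.49 and 1.44 in WT1 to WT4 and 0.979, 0.936, 0.964 and 0.907 in ANKO1 to ANKO4. In WT the Parp9 transcript was the more abundant of the pair per length, and in each ANKO library it was the less abundant. The log2 ratio differed by -0.60 between genotypes (exact two-sided permutation test p = 0.0286, the smallest that 4 against 4 libraries allow; 0.0429 adjusted over the 3 ratios tested).

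The ratio of Parp14 to Parp9 was 1.06, 1.05, 1.09 and 1.06 in WT and 1.65, 1.65, 1.64 and 1.58 in ANKO. Near-equal levels per length in WT stood against an excess of Parp14 in ANKO, with a log2 difference of 0.61 (exact permutation p = 0.0286, adjusted 0.0429). The spread within each genotype was small in both ratios, with an SD of at most 0.05 on the log2 scale. Both ratios contain Parp9, so their tests are not independent. Parp14 and Dtx3l rose alike (log2 fold changes 1.67 and 1.66), and their ratio was not tested. Parp12 was also compared with Zc3hav1, which lies 731.8 kb away with 8 protein-coding genes between and resembles it in carrying CCCH zinc fingers. That ratio was 1.22, 1.17, 1.24 and 1.18 in WT and 1.08, 1.24, 1.12 and 1.07 in ANKO. Those ranges overlapped, and the log2 difference of -0.10 did not pass the test (exact permutation p = 0.143, adjusted 0.143). Without ANKO2 the groups did not overlap and the difference was -0.14 (exact permutation p = 0.0571, the smallest that 4 against 3 libraries allow). A 4 against 4 comparison that misses the threshold does not show that the ratio was equal.

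**Figure D2:**
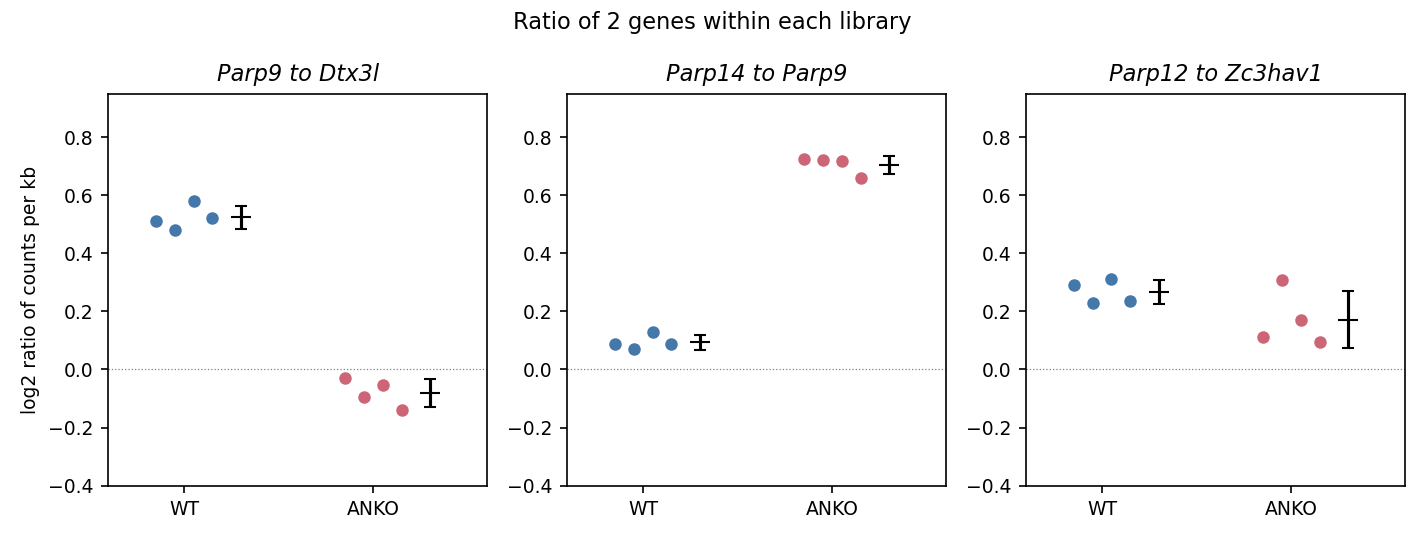
Log2 ratio of counts per kb of exon of gene pairs within each library (0, the dotted line, is equal level per length). Points are mice, and bars are the mean with its SD (n = 4 per genotype). Parp9 to Dtx3l crosses the line from WT to ANKO, Parp14 to Parp9 moves from 0.09 to 0.70 on average, and the groups overlap for Parp12 to Zc3hav1.

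The remaining PARPs that have been linked to antiviral defence rose by different amounts. Parp12 (ENSMUSG00000038507, chr6:39086410-39118349, minus strand) encodes a zinc finger mono-ADP-ribosyltransferase of the Golgi that can move to stress granules. Its levels were 51.8, 43.1, 39.4 and 39.1 in WT and 78.6, 81.4, 73.7 and 73.6 CPM in ANKO. All ANKO libraries exceeded all WT libraries (log2 fold change 0.83, standard error 0.11, 1.77-fold, adjusted p = 0.000102).

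Zc3hav1 (ENSMUSG00000029826, chr6:38305286-38354603, minus strand) encodes ZAP, also named PARP13, which lacks transferase activity and directs CpG-rich viral RNA to decay. It was read at 69.2, 60.0, 51.8 and 54.1 in WT and at 119, 107, 107 and 112 CPM in ANKO. The groups were well apart (log2 fold change 0.92, standard error 0.10, 1.90-fold, adjusted p = 4.71e-05).

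Parp10 (ENSMUSG00000063268, chr15:76231174-76243441, minus strand) encodes an enzyme that modifies acidic and other residues of its targets and also binds ubiquitin. Levels of 60.4, 49.9, 37.3 and 35.8 CPM in WT stood against 82.3, 78.4, 67.2 and 60.8 CPM in ANKO. The lowest ANKO library, ANKO4, was barely above the highest WT library, WT1. Its increase was the smallest of the 8 (log2 fold change 0.66, standard error 0.17, 1.58-fold, adjusted p = 0.00824). Without WT3 and WT4, the WT libraries with the least muscle RNA, the log2 fold change was 0.38 and was no longer called (adjusted p = 0.0607). Parp10 shares 205 exon bases with Plec, a gene on the same strand, whose reads may enter its count or be left out of it.

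Parp11 (ENSMUSG00000037997, chr6:127446840-127494241, plus strand) encodes a WWE domain enzyme that has been tied to the nuclear envelope and to turnover of the interferon receptor IFNAR1. In WT its levels were low and close together, at 9.75, 9.91, 8.64 and 9.33 CPM, and in ANKO they were 28.0, 25.0, 27.6 and 31.6 CPM. The lowest ANKO library was 2.52 times the highest WT library (log2 fold change 1.58, standard error 0.11, adjusted p = 1.75e-06). The 200 bases before each of its start sites are shown because Parp11 was the only one of 7 genes with a promoter sequence at hand that held both motifs searched. The motifs were the cores of the interferon-stimulated response element, GAAANNGAA, and of the gamma-activated site, TTCNNNGAA, each looked for on both strands of the 300 bases from 250 before to 50 after a start. Sequences are from RefSeq (GRCm38.p6), 5′ to 3′ on the plus strand, with matches in capitals.

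Parp11 first start (chr6:127446640-127446839, plus strand): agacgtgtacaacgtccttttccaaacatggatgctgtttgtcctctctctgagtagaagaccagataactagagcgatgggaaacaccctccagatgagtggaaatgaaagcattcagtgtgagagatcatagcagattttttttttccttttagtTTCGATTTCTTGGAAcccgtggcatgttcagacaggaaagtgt
Parp11 second start (chr6:127453427-127453626, plus strand): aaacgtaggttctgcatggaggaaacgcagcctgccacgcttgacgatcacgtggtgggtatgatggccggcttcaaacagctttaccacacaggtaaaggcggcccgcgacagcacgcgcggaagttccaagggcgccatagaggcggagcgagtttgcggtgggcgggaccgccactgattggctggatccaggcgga

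Capitals in the first of these sequences mark a response element core on the reverse strand, TTCGATTTC, 43 bases before the start, and an overlapping gamma-activated core, TTCTTGGAA, 37 bases before it. The second held neither. Among all 32851 promoters of the same length in the table, 8.56% held the response element core and 8.30% the gamma-activated core. A gamma-activated core, TTCAGAGAA, also began 4 bases before the start of Parp16, which was not called, and ran across that start. The promoters of Parp6, Parp8, Parp12, Zc3hav1 and Dtx3l held neither core in this window, although 4 of these 5 genes rose. A match describes letters only and says nothing of binding in these mice.

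Parp8 (ENSMUSG00000021725, chr13:116854824-117025516, minus strand), a mono-ADP-ribosyltransferase whose targets are little known, had the largest change of the 10 genes and the lowest WT level. It was read at 4.85, 4.08, 3.26 and 3.32 in WT and at 17.9, 17.7, 16.1 and 18.1 CPM in ANKO. The ANKO libraries varied by 5.33% around their mean (coefficient of variation) and the lowest was 3.31 times the highest WT library (log2 fold change 2.18, standard error 0.15, 4.53-fold, adjusted p = 2.17e-06). In counts, the WT libraries held 98 to 146 reads of the gene and the ANKO libraries 124 to 469. Its promoter is shown beside that of Parp6, since these genes changed in opposite directions. G and C make up 72.5% and 67.5% of these bases, printed 5′ to 3′ on the strand of the gene (RefSeq, GRCm38.p6). Neither promoter held a motif core to set in capitals.

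Parp8 (chr13:117025532-117025731, minus strand): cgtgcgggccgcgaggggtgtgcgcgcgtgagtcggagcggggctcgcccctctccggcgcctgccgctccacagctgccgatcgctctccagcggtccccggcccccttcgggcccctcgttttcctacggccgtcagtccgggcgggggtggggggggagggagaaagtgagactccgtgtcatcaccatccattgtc
Parp6 (chr9:59617084-59617283, plus strand): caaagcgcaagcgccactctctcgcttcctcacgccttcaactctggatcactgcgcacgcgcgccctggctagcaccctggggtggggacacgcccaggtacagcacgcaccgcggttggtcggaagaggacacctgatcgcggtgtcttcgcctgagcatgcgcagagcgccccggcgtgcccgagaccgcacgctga

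Parp6 (ENSMUSG00000025237, chr9:59617284-59650290, plus strand) encodes a mono-ADP-ribosyltransferase close to PARP8 in sequence and known from the growth of dendrites in neurons. Its levels were 64.7, 62.5, 70.5 and 66.8 in WT and 45.0, 47.9, 41.1 and 32.3 CPM in ANKO. Every ANKO library was below every WT library, against 26.4% of all genes, and the gene fell 1.59-fold (log2 fold change -0.67, standard error 0.12, adjusted p = 0.000848). With mean muscle marker level as covariate the value was -0.53 and was not called (adjusted p = 0.0986). Most brown adipocyte markers fell in ANKO beside Parp6. Of 12, 10 were called lower (27.6% of all genes were) and 1 higher (30.6%), with log2 fold changes from -3.40 to 2.66. The part of brown adipocytes in the fall of Parp6 was not tested.

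Parp16 (ENSMUSG00000032392, chr9:65214690-65239219, plus strand) encodes a PARP anchored in the endoplasmic reticulum membrane, where it has been described to act on the stress sensors PERK and IRE1. It was read at 12.8, 4.89, 4.09 and 3.94 in WT and at 10.9, 10.6, 8.61 and 8.16 CPM in ANKO. WT1 stood above every ANKO library, while the other 3 WT libraries lay below all of them. With all 8 libraries the difference was not called (log2 fold change 0.60, standard error 0.37, adjusted p = 0.190). Without WT1 it was 1.14 and called (standard error 0.17, adjusted p = 0.000345), and with muscle markers as a covariate it was -0.32 (standard error 0.63, adjusted p = 0.758). Of the genes for the 3 sensors of endoplasmic reticulum stress, 1 rose (30.6% of all genes did) and 1 fell (27.6%). Ern1, which encodes IRE1, rose (log2 fold change 0.58, adjusted p = 0.00392), Atf6 fell by 0.48 (adjusted p = 0.0125), and Eif2ak3, which encodes PERK, was at -0.08 (adjusted p = 0.441). Atf6 was no longer called with total-count scaling, without WT3 and WT4, with the muscle covariate or after thinning.

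Muscle RNA differed between the WT libraries as well as between genotypes, so the 10 genes were set beside it library by library. Muscle markers summed to 874, 2590, 113 and 30.0 CPM in WT1 to WT4. WT1 was the highest WT library for 8 of the 10 genes, the exceptions being Parp11 (WT2) and Parp6 (WT3), and WT4 or WT3 was the lowest for 9. WT1 and WT2, the WT libraries with more muscle RNA, both exceeded WT3 and WT4 in 9 of the 10 genes, all but Parp6. Muscle markers were, however, higher in WT2 than in WT1. Other markers also parted WT1 and WT2 from WT3 and WT4. Brown adipocyte markers summed to 16773, 18996, 26328 and 25450 CPM in WT1 to WT4. Fibroblast markers summed to 1195, 1257, 864 and 1001 CPM. The share of all genes with WT1 and WT2 both above WT3 and WT4 was not counted. Counts over the whole set of genes also differed more across than within these pairs of WT libraries. Chi-square per degree of freedom was 23.0 (WT3, WT4) and 26.2 (WT1, WT2) within pairs, and 64.1 to 105 across. The parts of muscle, brown adipocyte and fibroblast RNA in these differences between WT libraries were not tested. For the 7 of these 8 genes other than Parp16, WT1 exceeded the WT mean log2 level by 0.24 to 0.43, and Parp16 exceeded it by 1.17. Macrophage markers were lowest in WT1 (162 CPM) and highest in WT4 (210 CPM) among WT libraries. A fit with the mean log2 muscle marker level as a covariate was also made. Over all genes tested it called 2218 higher and 1623 lower, against 5111 and 4615 without the covariate. This fit kept the calls of 6 of the 8 genes that rose. It gave 1.78 for Parp8, 1.45 for Parp11, 1.26 for Parp14, 1.18 for Dtx3l, 0.68 for Zc3hav1 and 0.59 for Parp12 on the log2 scale. Parp9, at 0.63 (adjusted p = 0.0581), and Parp10, at 0.11 (adjusted p = 0.794), were no longer called. Pearson r between covariate and genotype was 0.848 over the 8 libraries, so the covariate and genotype cannot be told apart well in this fit.

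**Figure D3:**
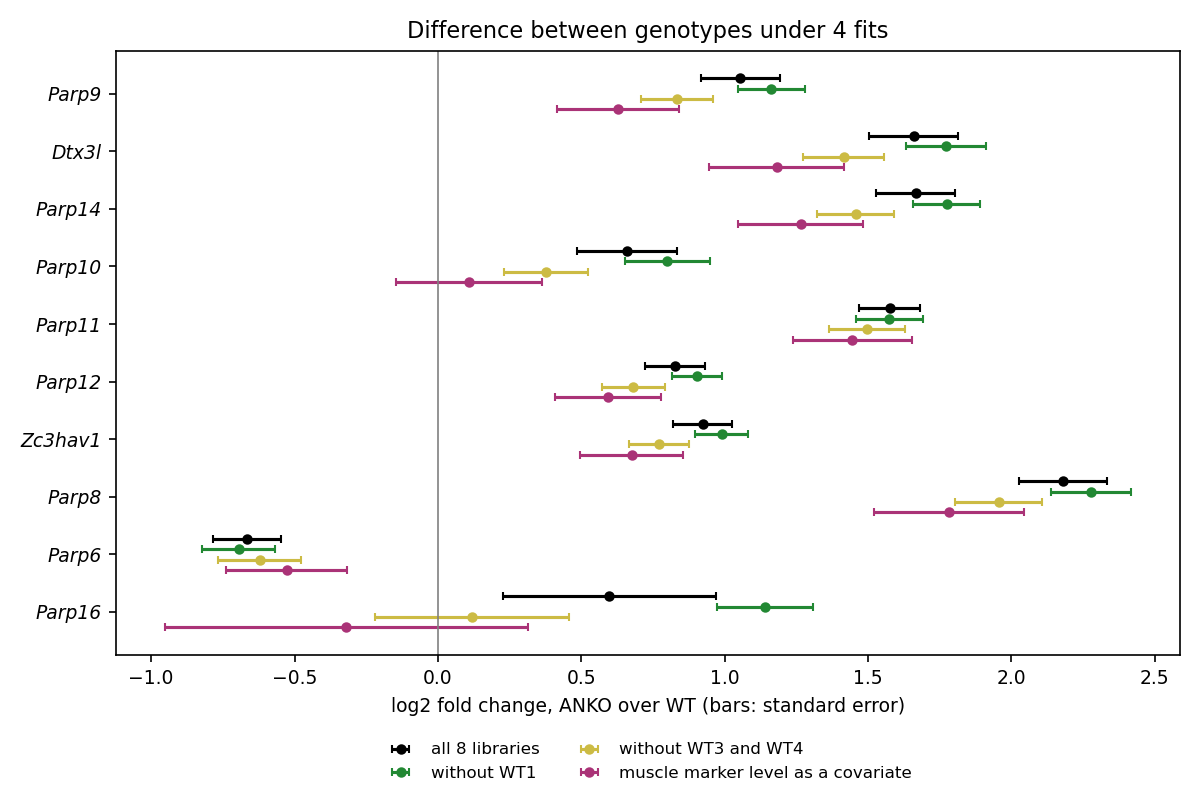
Log2 fold change of each gene, ANKO over WT, in 4 fits (points) with the standard error (bars): all 8 libraries, without WT1, without WT3 and WT4, and with muscle markers as a covariate. Values of the 8 genes that rose stay right of 0 in all 4 fits, Parp6 stays left of it, and Parp16 runs from -0.32 to 1.14.

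In ANKO, several of the genes parted ways in ANKO4, the library with the fewest counts and the lowest brown adipocyte markers. Dtx3l was 0.25, Parp9 0.19, Parp11 0.18 and Parp14 0.14 above its ANKO mean on the log2 scale there. In the same library Parp6 was at -0.35, Parp10 at -0.24 and Parp16 at -0.21. Parp8 (0.05), Zc3hav1 (0.01) and Parp12 (-0.06) lay near their ANKO means. ANKO4 also had the highest fibroblast markers (7535 CPM against 3968 to 5115 CPM in ANKO1 to ANKO3); their part in these levels was not tested.

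Per gene length, the order of the 10 genes differed between genotypes. In WT, Parp6 led at 24.4 ± 1.27 RPKM (CPM per kb of exon, SD, n = 4), apart from all others. Parp12 (10.8), Parp10 (10.7), Zc3hav1 (9.01), Parp14 (5.85 to 8.79 over the libraries), Parp9 (6.57), Dtx3l (4.58), Parp16 (2.59), Parp11 (1.64) and Parp8 (1.26) followed, and each of these overlapped with the next over the WT libraries. In ANKO, Parp14 led at 22.2 ± 1.60 RPKM, apart from all others, and Parp12 was next at 19.2 ± 0.962 RPKM. Parp12 was apart from Zc3hav1, but its range (18.4 to 20.4 RPKM) overlapped with that of Parp10 (14.2 to 19.2 RPKM). Zc3hav1 (17.1), Parp10 (16.9), Parp6 (15.3), Dtx3l (14.5) and Parp9 (13.6) followed, and each of the first 4 of these overlapped with the next. Parp8 (5.65), Parp11 (4.91) and Parp16 (3.85) formed a lower set, apart from Parp9. Parp6 thus held 25.7% to 36.0% of the summed RPKM of the 10 genes in WT and 8.93% to 12.8% in ANKO. The share of Parp14 was 8.30% to 9.47% in WT and 15.6% to 18.3% in ANKO.

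**Figure D4:**
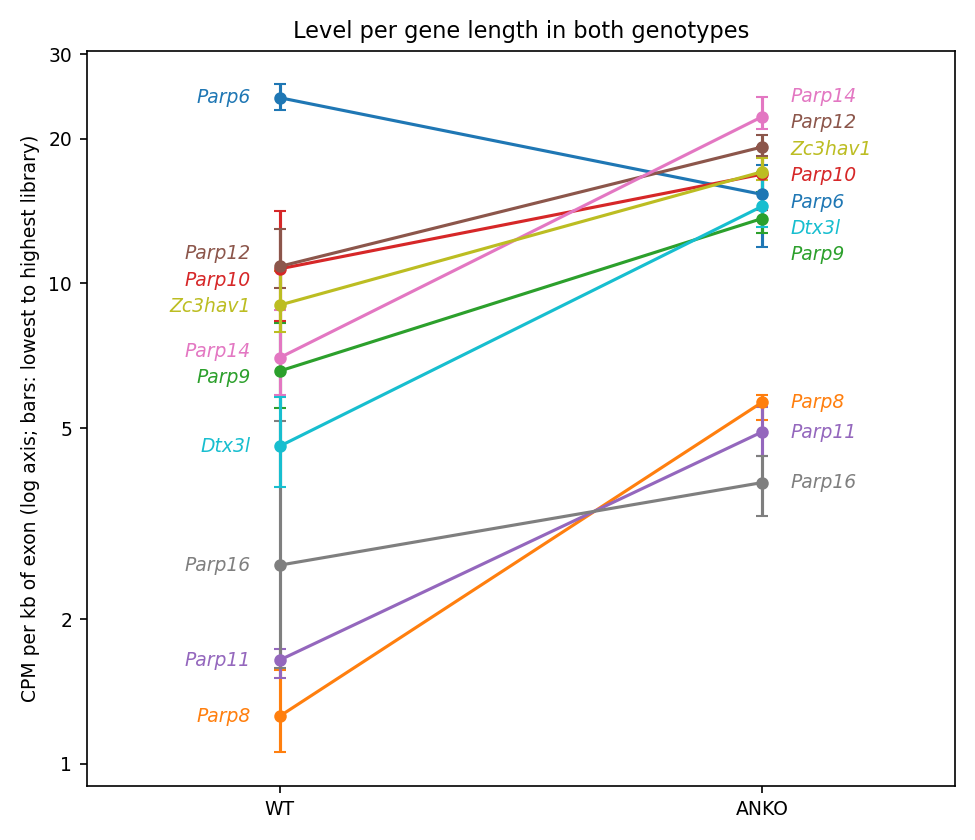
Mean level per kb of exon of each gene in WT and ANKO on a log axis, with bars from the lowest to the highest library (n = 4 per genotype). Parp6 leads in WT and lies below 4 others in ANKO, where Parp14 leads, while Parp8, Parp11 and Parp16 are the lowest in both.

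The rest of the PARP family showed no common direction. Of 7 genes, 2 rose (30.6% of all genes did) and 2 fell (27.6%), with a median log2 fold change of -0.13. Parp1, the main DNA damage PARP, fell from 121 ± 11.6 to 80.4 ± 6.50 CPM, with SDs over 4 mice (log2 fold change -0.59, adjusted p = 0.000612). Parp3, another DNA break PARP, rose from 62.5 ± 7.57 to 110 ± 9.21 CPM (0.82, adjusted p = 0.000144). Changes of the tankyrase genes were small and opposite, 0.27 for Tnks and -0.31 for Tnks2, and both were called (adjusted p = 0.0218 and 0.0214). The number of these 7 genes called higher was 1 with DESeq2 or after thinning of counts. The number called lower was 1 with total-count or upper-quartile scaling. Tiparp, which mono-ADP-ribosylates the aryl hydrocarbon receptor, was at -0.48 (adjusted p = 0.109), Parp2 at -0.13 and the vault component Parp4 at -0.01, none of them called.

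Genes whose proteins remove or read ADP-ribose were split as well, with 4 of 14 higher, 5 lower and a median of -0.25. Among all genes 30.6% were higher and 27.6% lower, so these counts do not set the list apart. Macrod1, a mitochondrial hydrolase that removes single ADP-ribose units, fell from 68.2 ± 3.15 to 23.5 ± 3.66 CPM (log2 fold change -1.53, adjusted p = 3.62e-06). Parg, which cuts ADP-ribose chains, fell by 0.50 on the log2 scale (adjusted p = 0.00329). H2afy2, a macrodomain histone, fell by 1.38 and its relative H2afy rose by 0.38 (adjusted p = 0.00125 and 0.0012). Trpm2, a cation channel opened by free ADP-ribose, rose from 1.07 ± 0.147 to 5.63 ± 0.844 CPM (log2 fold change 2.38, adjusted p = 5.37e-06). Adprhl1, an ADP-ribosylhydrolase-like gene of the heart, rose by 3.67 (adjusted p = 0.000521). With the muscle covariate 1 gene of the list was called higher and 1 lower.

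The Art genes are a family named after ADP-ribosyltransferases that act outside the cell. Of the 4 tested, 2 were higher (30.6% of all genes) and 1 lower (27.6%). Art1, known from skeletal muscle, rose from 2.04 ± 2.67 to 34.2 ± 1.76 CPM and Art5 from 0.481 ± 0.501 to 6.56 ± 0.966 CPM (log2 fold changes 4.15 and 3.88, adjusted p = 0.00900 and 0.000500). Muscle markers rose beside them (10 of 12 called higher), and with the muscle covariate no gene of this list was called higher. Art3 fell by 0.68 (adjusted p = 0.000723), and Art2b was too low to test. Art4 had 0.347 ± 0.203 (WT) and 0.635 ± 0.298 CPM (ANKO) and was not called (adjusted p = 0.103).

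Interferon signalling genes showed 13 of 18 higher (30.6% of all genes) and 2 lower (27.6%), with a median of 0.75. Irf7, the regulator of type I interferon genes, rose from 10.2 ± 1.32 to 176 ± 12.6 CPM (log2 fold change 4.11, adjusted p = 5.19e-08). Usp18, which takes ISG15 off proteins and damps the receptor, rose by 3.51, and Stat2 by 1.43. Irf3 fell by 0.54 and the receptor chain Ifngr1 by 0.30 (adjusted p = 0.000235 and 0.0378). All 24 interferon-stimulated effector genes were higher, with a median of 2.53 and a range from 0.83 (Eif2ak2) to 5.96 (Mx1). Isg15, a ubiquitin-like modifier, rose from 1.29 ± 0.0740 to 15.4 ± 1.57 CPM. Bst2, which tethers virus particles to the cell and also marks plasmacytoid dendritic cells, rose from 27.9 ± 2.35 to 153 ± 13.4 CPM. The effectors summed to 435, 354, 319 and 296 CPM in WT1 to WT4, the same library order as the summed level of the 10 genes. This order was not particular to them, since lymphocyte markers shared it (7.97, 7.46, 6.41 and 6.28 CPM). Total counts ran in the reverse order, lowest in WT1 and highest in WT4, and macrophage markers were also lowest in WT1. In ANKO1 to ANKO4 the effectors summed to 1685, 1790, 1492 and 1758 CPM, highest in ANKO2, whereas the 10 genes summed highest in ANKO4. Macrophage and lymphocyte markers also rose, with 12 of 12 and 13 of 14 called higher. Of 11 neutrophil and dendritic markers listed, 7 were tested and all 7 were called higher. That list holds Bst2 too, which made up most of its mean sum (32.1 CPM in WT, 215 CPM in ANKO). The part of these cell types in the increases of PARP and interferon genes was not tested.

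Of 7 genes for partners of ZAP in RNA decay, 1 rose (30.6% of all genes did) and 2 fell (27.6%). Trim25, the ubiquitin ligase that ZAP needs, rose from 35.6 ± 2.59 to 105 ± 12.8 CPM (log2 fold change 1.56, adjusted p = 1.86e-06). The helicase genes Ddx17 and Dhx30 fell by 0.58 and 0.66 (adjusted p = 0.00519 and 0.000598). The nuclease gene Khnyn was at 0.01, N4bp1 at -0.06, and the exosome genes Exosc5 and Exosc7 at -0.29 and -0.05, none of them called.

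**Figure D5:**
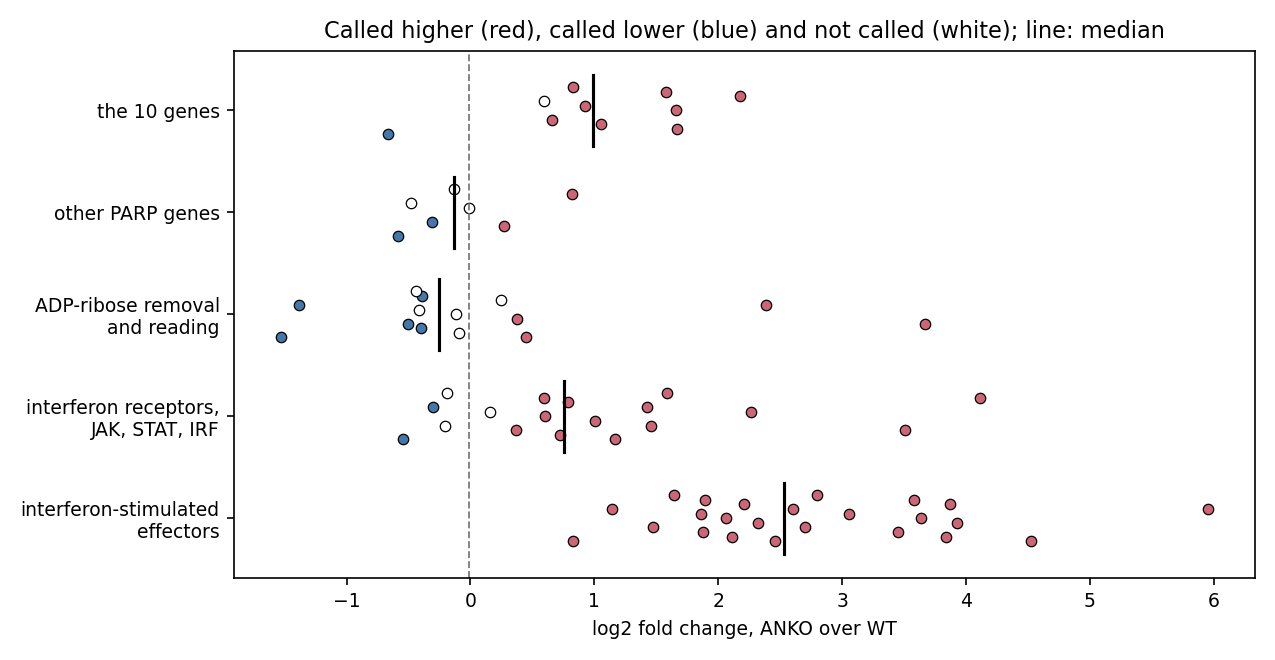
Log2 fold change, ANKO over WT, of each gene (points) in the 10 genes and 4 related lists, with the list median as a black line. The dashed line is the median over all genes tested (-0.01). Red genes were called higher, blue lower and white not called (edgeR adjusted p under 0.05). The medians are 0.99 for the 10 genes, -0.13 for other PARPs, -0.25 for ADP-ribose removal and reading, 0.75 for interferon signalling and 2.53 for effectors.

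For each gene, the protein-coding genes with the most similar log2 CPM over the 8 libraries were listed, as a description in which the genotype difference and the shared libraries raise every correlation. Parp14 was closest to Rbm43 and to the interferon-stimulated gene Trim30a (Pearson r = 0.999 for both). Dtx3l was closest to Apaf1 and Rnf213, Parp9 to Gm12216 and Chrm1, Zc3hav1 to Fndc9 and Rab11fip5, and Parp12 to Ajuba and Dusp9. Parp8 lay closest to Nin and the class I gene H2-Q4, Parp11 to Tnfrsf11a and Ppm1h, and Parp10 to Shroom1 and Flrt1. Parp6, the gene that fell, was closest to the mitochondrial genes Eral1 and Fh1 (Pearson r = 0.998 for both), whose log2 fold changes were -0.95 and -1.29. Parp16 had the weakest likeness, with Zc3h6 (r = 0.973) and Psapl1 (r = 0.970).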

How the data were processed

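The data are 8 libraries of brown adipose tissue, 4 WT and 4 ANKO, grouped by their labelled genotype. The submitters' processing notes name STAR 2.0.4b, featureCounts 1.45 and GRCm38. How strand and multi-mapped reads were handled, and by which annotation, was not given in the sources used here. The authors deposited 1 table per library with a whole-number count, a CPM and an RPKM for each of 41388 Ensembl genes, per the file headers. The deposited CPM and RPKM were recomputed from the counts within 1e-09, and only the counts entered the tests.

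Symbols came from GENCODE M21 by Ensembl gene ID (40254 matched). Library sizes and tests exclude 355 rRNA rows, with 2.83% to 3.53% of WT counts and 0.801% to 1.13% of ANKO counts. Genes were filtered with filterByExpr by group, scaled by TMM and tested with edgeR 4.0.16 (robust quasi-likelihood, R 4.3.3, no covariate), with Benjamini-Hochberg adjustment over 16705 genes. The biological coefficient of variation was 20.6%. CPM and RPKM values in the text use the scaled library sizes, with gene lengths as deposited. Floors of 3 counts cover counting error only, as PCR copies are not independent molecules. Ratios used counts per kb with 0.5 counts added and an exact permutation test over libraries. The edgeR test was tried on simulated counts. It called 13.4% of 1.5-fold, 62.7% of 2-fold and 98.5% of 4-fold changes, with 13 false calls. No pair of libraries agreed within sampling noise.

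The members, gene lists and tests were chosen with earlier results of these data known. Named are all 10 members, Nampt, every gene of a list of up to 7, otherwise up to 3 called genes with the smallest p in each direction, and for each member the 2 most alike genes. Genes named as the extremes of a list, and Trim30a as a list member, follow from their values. Marker lists covered macrophages, lymphocytes, neutrophils and dendritic cells, brown adipocytes, skeletal muscle, endothelium and fibroblasts. Endothelial markers summed to 1016 to 1157 CPM in WT and 806 to 939 CPM in ANKO, lymphocyte markers to 6.28 to 7.97 and 39.3 to 60.5 CPM, and neutrophil and dendritic markers to 29.7 to 36.0 and 196 to 229 CPM, with the neutrophil marker Ly6g at 0 in all libraries. Promoters came from RefSeq (GRCm38.p6) and matched 7 of the 10 genes. Alternatives were other scalings, filters and thresholds, DESeq2 1.42.0, limma-voom 3.58.1, a replicate block, left-out libraries, protein-coding genes alone, a muscle covariate, non-robust fitting and thinning of counts.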

Additional observations from a re-analysis of the deposited data

Results flagged for a closer look

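In 6 of 98 groups of 4 libraries tested, 1 library stood far from the other 3 (by Dixon's gap over range, a limit that chance passes in about 1 of 20 groups). Parp16 in WT1 was at 12.8 CPM against 3.94 to 4.89 CPM in the other WT libraries. Parp8 in ANKO3 was at 16.1 CPM against 17.7 to 18.1 CPM. The log2 ratio of Parp14 to Parp9 was 0.66 in ANKO4 and 0.72 in each of the other ANKO libraries. Among related genes, Nampt in WT3 was at 571 CPM (others 484 to 495), Parp3 in WT3 at 51.2 CPM (others 65.2 to 67.2) and Exosc5 in WT2 at 25.6 CPM (others 27.5 to 27.8).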

How the results depend on the processing

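Of 230 log2 fold changes of the 10 genes under alternatives, 218 kept their direction and side of the threshold, 8 lost the call, 3 gained it and 1 changed sign. These include an adjusted p under 0.01 and an added limit of 1 on the log2 scale, which changed the threshold but not the fit. Parp6, Parp10, Parp12 and Zc3hav1 lost the call under that limit. Parp8, Parp11, Parp14 and Dtx3l kept theirs under all 23 alternatives, with ranges of 1.78 to 2.36, 1.45 to 2.05, 1.26 to 1.85 and 1.18 to 1.85. The number of genes called higher was 8 to 9 with a library left out, 7 without WT3 and WT4, 6 with the muscle covariate and 5 with an added limit of 1 on the log2 scale. The number called lower was 1 with any library left out and 0 with the muscle covariate or the added limit. Parp16 turned to -0.32 with the muscle covariate and was called with limma-voom (0.89, adjusted p = 0.0418), in the fit with the replicate block (0.73, adjusted p = 0.0478) and without WT1.

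The replicate numbers pair no samples by the labels, and same-numbered libraries did not deviate together (correlations 0.114, -0.01, 0.075 and -0.05). With the replicate block 9239 of all genes were called against 9726, and 9 of the 10 genes were called higher. With a library left out, the Parp9 to Dtx3l difference was -0.62 to -0.58 and the Parp14 to Parp9 difference 0.60 to 0.63, each at the smallest exact permutation p of 3 against 4 libraries (0.0571). Paired by number they were -0.60 and 0.61 (exact sign-flip p = 0.125), and without WT3 and WT4 -0.58 and 0.63 (exact permutation p = 0.133); these designs allow no smaller p. The Parp12 to Zc3hav1 difference was -0.14 to -0.07 with a library left out, and -0.14 without ANKO2 (exact permutation p = 0.0571, again the smallest possible). Counts for the related lists under the alternatives, these thresholds included, stayed within 1.5 times of the main count in 271 of 322 cases. They ranged from 0 to 2 higher and 0 to 3 lower for other PARPs, 1 to 4 and 1 to 6 for ADP-ribose removal and reading, 8 to 14 and 0 to 3 for interferon signalling, 0 to 1 and 0 to 1 for endoplasmic reticulum stress sensors, and 23 to 24 higher for effectors. Over all genes, 3841 were called with the muscle covariate and 5548 after thinning to the lowest total. Depth limits low genes most in ANKO4.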
